A study of Mus musculus with 6 samples.

Results

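Epithelial antimicrobial defence was followed through 10 genes chosen by name, Lcn2, Pigr, Nos2, Pla2g2a, Itln1, Duox2, Duoxa2, Reg3b, Reg3g and Lyz1, out of 54418 gene rows in the deposited table. The choice was made with earlier results of these data known. RNA was sequenced from mouse AKP organoids, which are self-organising epithelial cultures of a tumour line; the labels give its name without its alleles. There were 3 libraries labelled GATA6KO, in which the gene of the endodermal transcription factor GATA6 was targeted, and 3 labelled Control, all on the AKP background. The labels give no treatment, culture time, mouse strain, position of the lesion in Gata6 or clone number. They also do not say whether replicates were separate cultures, so that p-values here describe the variation among these 6 libraries and may reflect technical differences alone.

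The intestinal epithelium holds microbes at a distance with several kinds of product. Paneth cells and enterocytes secrete proteins that kill bacteria or bind their surface, oxidases at the apical membrane release hydrogen peroxide, and a receptor on the basal side carries dimeric immunoglobulin A into the lumen. Many of these genes are low in cells that meet no microbes and are induced by bacterial products and by interleukins 17 and 22 from immune cells.

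The libraries held 22973245 to 31328415 estimated counts. Gata6 measured 12.8 ± 4.09 CPM in GATA6KO organoids and 25.5 ± 2.42 CPM in Control organoids (SD, n = 3 each; CPM is counts per 1000000 after TMM scaling). Its log2 fold change was -0.99 (edgeR adjusted p = 0.0486), and leaving out any of Control replicates 1, 2 and 3 ended the call (edgeR adjusted p = 0.149, 0.128 and 0.181). The GATA6KO libraries lay apart from each other on the second principal component, at -44.4, 52.5 and -24.0 for replicates 1 to 3, while the Control libraries lay at 3.6 to 8.7. In GATA6KO replicate 2, the median log2 ratio to the Control mean was -0.90 over 355 genes of chromosome 14. Of the 10 defence genes, 0 lie on that chromosome. Of the tested genes of the defence lists below, 3 lie there, and 0 of them were called. Mitochondrial transcripts took 2.07% to 2.84% of counts in GATA6KO and 1.85% to 1.88% in Control. The ranges of the groups were separate, in either direction, for 40.8% of all genes tested. All 8 epithelial markers passed the filter and were lower in every GATA6KO library than in any Control library, with a median log2 fold change of -0.51. Of these, 3 were called, the adhesion protein gene Cdh1 and the keratin genes Krt8 and Krt18 (log2 fold changes of -0.44, -0.55 and -0.84, edgeR adjusted p = 0.0246, 0.0256 and 0.00971), while Epcam, at 686 CPM in GATA6KO and 859 CPM in Control, was not (edgeR adjusted p = 0.104). Of 8 fibroblast and endothelial markers, 7 had at most 10 counts in any library. Of 14 leukocyte markers, 9 had at most 10 counts, and the neutrophil enzymes Elane and Mpo were at 0 in all 6 libraries. The summed leukocyte list came to 208 to 368 CPM in GATA6KO and 477 to 565 CPM in Control, most of it from Ly6g, a gene of the Ly6 family, at 298 CPM in GATA6KO and 504 CPM in Control. All 4 leukocyte markers tested were lower in GATA6KO without overlap, with a median log2 fold change of -1.80. The macrophage marker Cd68 was called, at 3.43 CPM in GATA6KO and 11.9 CPM in Control (log2 fold change -1.79, edgeR adjusted p = 0.019), while S100a8 and S100a9 of neutrophils had log2 fold changes of -1.81 and -2.01 and were not called (edgeR adjusted p = 0.155 and 0.0732). S100a8 and S100a9 are also on the list of secreted antimicrobial proteins below. Leukocyte markers under the filter went both ways. Summed over the libraries, Ptprc, Csf1r, Adgre1, Cd3e and Cd79a had 19, 7, 9, 10 and 5 counts in GATA6KO. In Control they had 16, 5, 1, 3 and 1 counts. Itgam, Jchain and Lyz2 had 16, 1 and 0 counts in GATA6KO and 19, 3 and 1 in Control. The part of the epithelial and leukocyte markers in the results below was not tested.

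Of the 10 defence genes, 4 had enough counts to test, and 3 of these changed. Pla2g2a and Nos2 fell in GATA6KO organoids, Itln1 rose, and Pigr was not called. Over all 14714 genes tested, 12.4% were called, 6.92% higher and 5.47% lower. For the 3 called defence genes the ranges of the groups were separate, which held for 40.8% of all genes tested. The remaining 6 genes had at most 11 counts in a GATA6KO library and at most 10 in a Control library, and did not pass the filter on low counts.

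For 8 of the 10 genes RefSeq promoter windows were at hand (GRCm38.p6, the assembly of mm10), of which the 250 bases before the RefSeq start were read. Pla2g2a and Nos2, the defence genes that fell, had no window and were not searched. That start is not always the start of the gene in GENCODE M21, and the window lay inside the GENCODE gene for all of its bases in Lcn2, for 222 in Duox2 and for 228 in Reg3b. The letters GATAA, 1 form of the sequence that GATA factors bind, occurred on either strand in the windows of 2 genes, Lyz1 and Reg3b. They occurred in 22.6% of all 32851 windows of that length. Other forms of that sequence were not searched. The Itln1 window, shown because Itln1 was the gene that rose, held no GATAA. It is printed with the Lyz1 and Reg3b windows, 5′ to 3′ on the strand of the gene and with GATAA or its reverse complement in capitals. The windows are chr1:171535295-171535544 (minus strand), chr10:117292869-117293118 (minus strand) and chr6:78370635-78370884 (plus strand).
Itln1: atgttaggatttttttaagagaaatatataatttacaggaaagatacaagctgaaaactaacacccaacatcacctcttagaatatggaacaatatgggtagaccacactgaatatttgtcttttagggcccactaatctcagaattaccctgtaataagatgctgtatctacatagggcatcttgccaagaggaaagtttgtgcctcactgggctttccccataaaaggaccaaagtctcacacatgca
Lyz1: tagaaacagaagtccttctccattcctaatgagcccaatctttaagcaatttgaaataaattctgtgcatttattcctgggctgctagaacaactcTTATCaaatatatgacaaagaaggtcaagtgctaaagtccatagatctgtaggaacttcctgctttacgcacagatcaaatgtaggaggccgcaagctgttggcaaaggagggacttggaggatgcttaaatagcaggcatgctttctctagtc
Reg3b: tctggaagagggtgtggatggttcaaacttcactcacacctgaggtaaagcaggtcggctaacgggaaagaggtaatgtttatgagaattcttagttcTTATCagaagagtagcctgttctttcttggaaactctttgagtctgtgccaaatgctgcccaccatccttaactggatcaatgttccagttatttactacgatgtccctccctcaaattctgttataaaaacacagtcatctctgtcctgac
A match to these letters is a description and not a binding site. In the other motifs searched on both strands, the STAT letters TTCNNNGAA occurred in 1 of the 8 genes (Reg3b) and in 7.02% of all windows, and the C/EBP letters TTGCNNAA in 2 (Lcn2 and Lyz1) and in 9.56%. The kappaB motif occurred in 1 (Reg3g) and in 3.9% of all windows, and the IRF motif in 0 and in 2.98%. None of these motifs overlapped another in the 3 windows shown.

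Among the bactericidal enzymes, Pla2g2a fell strongly. Pla2g2a encodes a secreted phospholipase A2 that Paneth cells release and that cuts the membranes of Gram-positive bacteria. It measured 2.58, 5.02 and 2.04 CPM in GATA6KO replicates 1 to 3, against 16.2, 14.9 and 20.2 CPM in Control replicates 1 to 3. Every GATA6KO library lay below every Control library, and GATA6KO replicate 2 was the highest of the 3. The means were 3.21 ± 1.59 CPM in GATA6KO and 17.1 ± 2.78 CPM in Control (SD, n = 3 each), a level 5.33-fold lower in GATA6KO (log2 fold change -2.41, SE 0.36, edgeR adjusted p = 0.0102). In bulk RNA such as this, fewer cells that make a transcript and less of it in each cell cannot be told apart. Leaving out Control replicate 3 ended the call (edgeR adjusted p = 0.0621, log2 fold change -2.28). Pla2g2a (ENSMUSG00000058908, mm10 chromosome 4, 138831857 to 138835186, plus strand) is annotated as a polymorphic pseudogene, because the C57BL/6 reference strain carries a disrupted copy that other strains do not. Which form these organoids carry was not analysed here.

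Pla2g2a lies within a cluster of secreted phospholipase genes, and its neighbour Pla2g5 fell with it. Pla2g5, a related secreted phospholipase, spans 138799244 to 138863482 on the opposite strand, so that Pla2g2a lies inside its span. The annotated exons of these genes share 0 bases. Pla2g5 measured 0.903, 0.656 and 0.400 CPM in GATA6KO replicates 1 to 3 and 4.29, 4.96 and 6.20 CPM in Control replicates 1 to 3. No GATA6KO library reached the Control range, and Pla2g5 fell by 2.97 on the log2 scale (SE 0.36, edgeR adjusted p = 0.00531). It was called without each library in turn, at an adjusted p of 0.00434 to 0.0395. Whether the counting used strand is not given in the sources used here.

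Neighbours were then taken by position, after their values were seen. Pla2g2f, a phospholipase prominent in skin, measured 7.61 CPM in GATA6KO and 17.4 CPM in Control and was not called (log2 fold change -1.19, edgeR adjusted p = 0.0528). Pla2g2e measured 0.642 CPM in GATA6KO and 1.03 CPM in Control (log2 fold change -0.69, edgeR adjusted p = 0.447). Farther off, Rnf186, a ubiquitin ligase of the colon epithelium, measured 14.7 CPM in GATA6KO and 108 CPM in Control (log2 fold change -2.88, edgeR adjusted p = 0.0325). Otud3, between Pla2g2a and Rnf186, was lower in every GATA6KO library than in any Control library. It was not called (log2 fold change -0.87, edgeR adjusted p = 0.0926). The genes between Pla2g2a and Rnf186 were thus not all called. Ubxn10, Tmco4, Htr6 and Nbl1 had log2 fold changes of -1.155, -0.51, -2.14 and -0.18. None of these was called (edgeR adjusted p = 0.0794 to 0.451). Every gene tested within 250 kb had a negative log2 fold change.

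**Figure D1:**
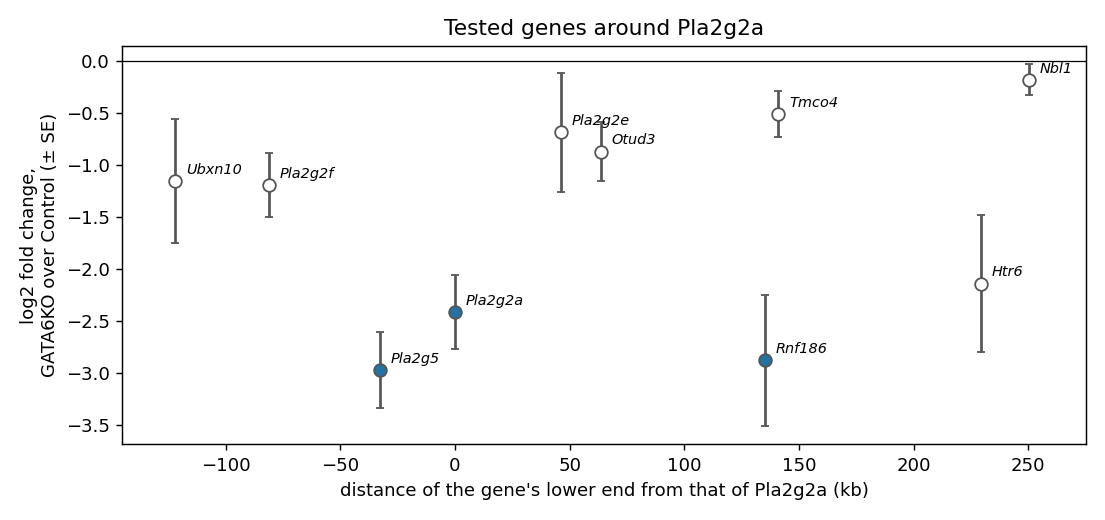
Tested genes within 250 kb of Pla2g2a by the distance of their lower coordinate from that of Pla2g2a (x axis, kb), with the edgeR log2 fold change of GATA6KO over Control (y axis, bars are SE). Filled points were called, and only Pla2g5, Pla2g2a and Rnf186 are filled, at -2.97, -2.41 and -2.88.

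Lyz1, the lysozyme of Paneth cells, which cuts bacterial cell walls, was nearly silent. It had 0 counts in each GATA6KO library, against 7, 0 and 2 counts in Control replicates 1 to 3. The groups overlapped at 0, and most of the Control counts were in replicate 1. Over the 88223048 counts of the GATA6KO libraries, 0 counts allow a level of up to 0.034 CPM (3 counts, counting error only). Lyz1 shares 34.2% of the 31-base words of its transcripts with Lyz2, the lysozyme of macrophages, which had 1 count in all 6 libraries. With no filter, Lyz1 was not called (log2 fold change -4.79, edgeR adjusted p = 0.198), and that fold rests on the prior count of the fit.

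Of the Paneth cell markers, all but Mmp7 were near 0. Of 12 genes on that list, which holds Lyz1 itself and Mmp7 and Ang4 of a list below, 11 never exceeded 10 counts in a library, and 8 of those had none. They were 7 defensin genes and the pentraxin Mptx2, and the remaining defensin of the list, Defa17, had 1 count in a Control library. Mmp7, a metalloproteinase that activates defensins in the mouse, had 232, 228 and 302 counts in GATA6KO replicates 1 to 3 and 126, 136 and 126 counts in Control replicates 1 to 3. Its level was 8.43 ± 1.42 CPM in GATA6KO and 4.81 ± 0.665 CPM in Control (SD, n = 3 each), higher in every GATA6KO library. It just missed the threshold (log2 fold change 0.81, edgeR adjusted p = 0.05005) and was called by DESeq2 and limma-voom.

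Among the oxidant enzymes, Nos2 fell to near 0. Nos2 encodes the inducible nitric oxide synthase, which makes nitric oxide from arginine. It had 3, 0 and 6 counts in GATA6KO replicates 1 to 3, against 32, 30 and 34 counts in Control replicates 1 to 3. The groups were far apart in counts, although even the Control level was low, above that of 17.5% of genes tested. The means were 0.100 ± 0.100 CPM in GATA6KO and 1.19 ± 0.188 CPM in Control (SD, n = 3 each), 11.5-fold lower in GATA6KO (log2 fold change -3.52, SE 0.73, edgeR adjusted p = 0.0277). The call was lost when Control replicate 1, 2 or 3 was left out (edgeR adjusted p = 0.114, 0.102 and 0.12). Without GATA6KO replicate 2 or 3 the log2 fold change was -2.95 or -4.46. Nos2 (ENSMUSG00000020826) lies on mm10 chromosome 11, 78920787 to 78960254.

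Duox2 and its maturation factor stayed at the edge of detection. Duox2, an oxidase that releases hydrogen peroxide at the apical surface, had 8, 2 and 11 counts in GATA6KO replicates 1 to 3 and 9, 7 and 10 counts in Control replicates 1 to 3. The ranges overlapped, and with no filter Duox2 was not called (log2 fold change -0.44, edgeR adjusted p = 0.72). Duoxa2, which Duox2 needs to leave the endoplasmic reticulum, had 1, 0 and 1 counts in GATA6KO and 1, 2 and 2 counts in Control. The genes lie head to head on chromosome 2, with 450 bases between them. Duoxa2 also shares 682 of its 1592 exon bases with Duoxa1 on the opposite strand, so that reads there could be divided between them.

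Among the lectins, Itln1 was the gene that rose. Itln1 encodes intelectin, a lectin that binds sugars found on microbial surfaces, and is made by Paneth and goblet cells. It measured 12.2, 9.71 and 6.74 CPM in GATA6KO replicates 1 to 3, against 3.46, 2.81 and 3.04 CPM in Control replicates 1 to 3. Every GATA6KO library lay above every Control library, with replicate 1 the highest. The means were 9.54 ± 2.72 CPM in GATA6KO and 3.10 ± 0.332 CPM in Control (SD, n = 3 each), 3.08-fold higher in GATA6KO (log2 fold change 1.62, SE 0.26, edgeR adjusted p = 0.0133). This call did not survive leaving out Control replicate 1, 2 or 3 (edgeR adjusted p = 0.0612, 0.0773 and 0.0826), while the log2 fold change was 1.54 to 1.71. Itln1 (ENSMUSG00000038209) lies on mm10 chromosome 1, 171518122 to 171535294.

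Goblet cell markers were examined beside Itln1. Of 7 markers, 4 were tested and 0 were called by edgeR, with 1 at an unadjusted p under 0.05, 1 called by DESeq2 and 0 by limma-voom. The summed list came to 56.4, 28.5 and 62.7 CPM in GATA6KO replicates 1 to 3 and 75.4, 77.1 and 79.0 CPM in Control replicates 1 to 3. The sum was lower in every GATA6KO library, but the markers differed in sign, with a median log2 fold change of 0.02. Most of the Control sum was Agr2, a protein disulfide isomerase of secretory cells, at 26.2 CPM in GATA6KO and 58.1 CPM in Control (log2 fold change -1.15, edgeR adjusted p = 0.083). In GATA6KO replicate 2 Agr2 was a smaller part, at 12.33 of 28.5 CPM. The mucus protein gene Fcgbp measured 21.8 CPM in GATA6KO and 17.8 CPM in Control (log2 fold change 0.30, edgeR adjusted p = 0.428), and Clca1 had a log2 fold change of 0.66 (edgeR adjusted p = 0.238). The part of these markers in the result for Itln1 was not tested. The mucin Muc2, which defines goblet cells, had at most 10 counts in any library.

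Reg3b and Reg3g, C-type lectins that kill bacteria after binding their cell wall, were not detected above a few counts. Reg3b had 0, 1 and 0 counts in GATA6KO replicates 1 to 3 and 0, 6 and 4 counts in Control replicates 1 to 3. Reg3g had 0, 2 and 1 counts in GATA6KO and 0, 5 and 6 counts in Control. Both were at 0 in Control replicate 1, so that the groups overlapped for each. With no filter neither was called (log2 fold changes of -2.98 and -1.82, edgeR adjusted p = 0.265 and 0.457). These genes share under 1% of their 31-base words, 0.446% for Reg3b and 0.231% for Reg3g.

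Pigr and Lcn2 differed by less than the spread between libraries. Pigr encodes the polymeric immunoglobulin receptor, which carries immunoglobulin A through the cell. It measured 5.99, 0.656 and 3.24 CPM in GATA6KO replicates 1 to 3, against 4.78, 3.47 and 3.27 CPM in Control replicates 1 to 3. The GATA6KO libraries lay on both sides of the Control range, with replicate 1 above it and replicates 2 and 3 below it. The means were 3.29 ± 2.67 CPM in GATA6KO and 3.84 ± 0.819 CPM in Control (SD, n = 3 each; log2 fold change -0.22, SE 0.68, edgeR adjusted p = 0.853), and the sign turned without GATA6KO replicate 2 (log2 fold change 0.27, edgeR adjusted p = 0.616). Pigr (ENSMUSG00000026417) lies on mm10 chromosome 1, 130826684 to 130852249.

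Lcn2 encodes lipocalin 2, which takes iron-carrying siderophores from bacteria. It had 4, 0 and 10 counts in GATA6KO replicates 1 to 3 and 4, 3 and 10 counts in Control replicates 1 to 3. The ranges were nearly the same, and with no filter Lcn2 was not called (log2 fold change -0.38, edgeR adjusted p = 0.848). Lcn2 is among the most strongly induced genes of the inflamed gut, and its level here was at most 0.334 CPM in each library.

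**Figure D2:**
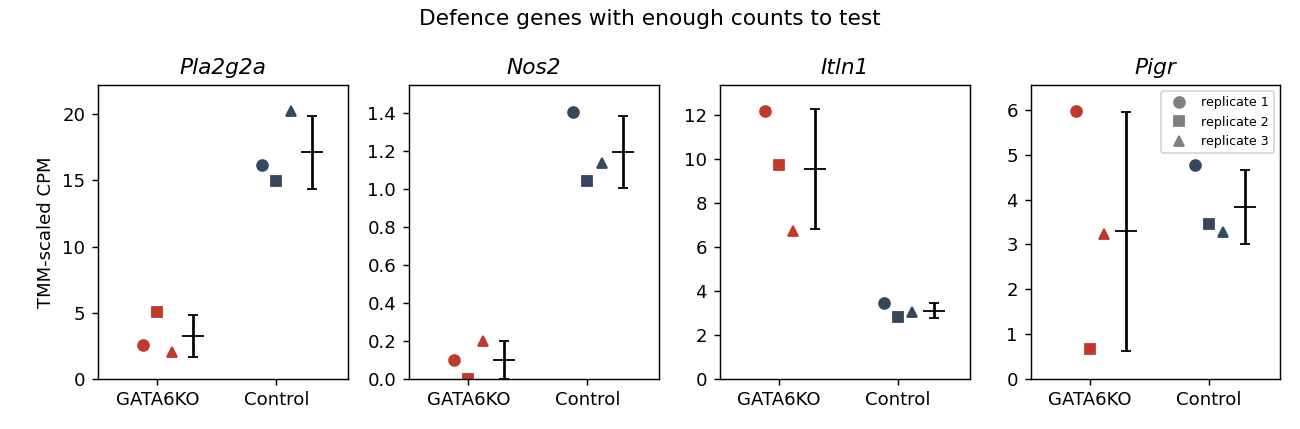
TMM-scaled CPM (y axis, from 0, a scale per panel) of Pla2g2a, Nos2, Itln1 and Pigr in 3 GATA6KO and 3 Control libraries, with a symbol per replicate and a bar for the mean ± SD. GATA6KO and Control do not overlap for the first 3 genes, and the GATA6KO values of Pigr, 0.656 to 5.99 CPM, span those of Control.

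**Figure D3:**
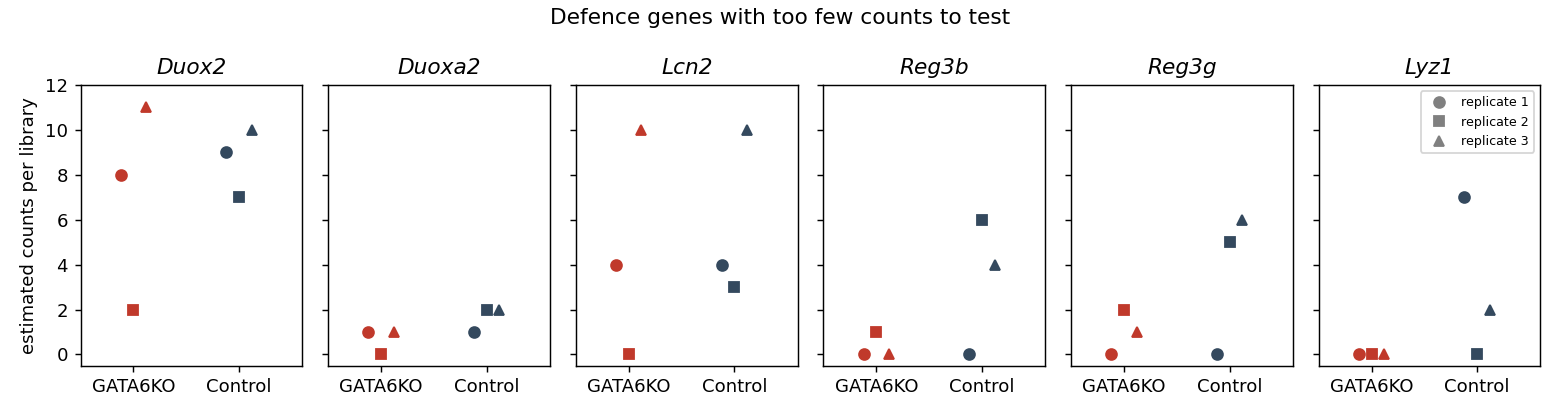
Estimated counts per library (y axis) of the 6 defence genes that were not tested, by group, with a symbol per replicate. No library exceeds 11 counts, and Lyz1 is at 0 in all 3 GATA6KO libraries.

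Together the 6 untested genes had 13, 5 and 23 counts in GATA6KO replicates 1 to 3 and 21, 23 and 34 counts in Control replicates 1 to 3. Of their 18 values in each group, 8 were 0 in GATA6KO and 3 were 0 in Control. With no filter, edgeR tested all 6 and called 0, with 2 at an unadjusted p under 0.05, Lyz1 and Reg3b, and adjusted p-values of 0.198 to 0.848. Duox2 also passed the filter in 4 of the fits that left out 1 library and was called in none of them (edgeR adjusted p = 0.587 to 0.994).

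Set per length, the order of the defence genes differed between the groups. On the scale of CPM per kb of annotated exon, Itln1 was at 8.36 ± 2.38 in GATA6KO and 2.72 ± 0.291 in Control (SD, n = 3 each). On that scale the level of Pla2g2a was 3.46 ± 1.71 in GATA6KO and 18.4 ± 2.99 in Control. In GATA6KO the libraries of Itln1 ran from 5.90 to 10.7 and those of Pla2g2a from 2.19 to 5.41, without overlap, so that Itln1 was first, while in Control Pla2g2a was first, at 16.1 to 21.8. The level of Pigr was below both, at 0.818 ± 0.662 in GATA6KO and 0.953 ± 0.204 in Control. Nos2 lay below Pigr, at 0.0227 ± 0.0227 in GATA6KO and 0.270 ± 0.0426 in Control, while the ranges of Pigr and Nos2 did not overlap in either group. The means of the other 6 genes were below 0.1 in both groups, while single Control libraries reached up to 0.243 (Lyz1, replicate 1). In GATA6KO the means of Lcn2 (0.0594) and Duox2 (0.0345) were above that of Nos2. The order among these 6 genes is not given.

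The genes most like each tested defence gene were sought among 11359 genes by the root mean square difference over the 6 libraries of their log2 ratios to the Control mean, with 0.5 CPM added. Nearest to Pla2g2a were Palm3 (0.174), Trpm6 (0.231) and Tbc1d9 (0.264). Nearest to Itln1 were Sesn3 (0.123), Mmp15 (0.139) and Vsig10l (0.144). Nearest to Nos2 were Itih5 (0.147), Zdhhc21 (0.161) and Pld1 (0.173), whose log2 fold changes of -1.65, -1.47 and -1.44 were smaller than that of Nos2, because the added 0.5 CPM shrinks the ratio of so low a gene. Nearest to Pigr were Rcor2 (0.163), Asah2 (0.194) and Pitpnm3 (0.241).

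Around these genes, 8 lists held 151 other genes of epithelial defence, of which 105 were tested, 8 were called higher and 16 lower. This is 22.9% of those tested, beside 12.4% of all genes, and their median log2 fold change was -0.17, beside 0.02 over all genes. The lists were chosen with earlier results of these data known, and the part of that choice in these values was not tested. Of the 24 called genes, 5 stayed called whichever library was left out, and these were Pla2g5, Il1r1, Ifngr1, Nlrp6 and Cebpa. Each of the other 19 was lost when Control replicate 1 or Control replicate 3 was left out, and 5 of them, Slc7a1, Il22ra1, Ccl20, Nfkbia and Xbp1, also when a GATA6KO library was. Called genes named beyond 4 per list were named after their values were seen.

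Of 16 tested secreted antimicrobial proteins, 3 rose and 2 fell (31.2%, beside 12.4% of all genes), with a median log2 fold change of -0.36. Sprr2a2 and Sprr2a1, small proline-rich proteins of which the mouse forms kill Gram-positive bacteria, rose. Sprr2a2 measured 1196, 1979 and 660 CPM in GATA6KO replicates 1 to 3 and 291, 260 and 266 CPM in Control replicates 1 to 3 (log2 fold change 2.23, SE 0.37, edgeR adjusted p = 0.0148). All GATA6KO libraries were above all Control libraries, and replicate 2 was the highest. Sprr2a1 rose by a log2 fold change of 2.71 (edgeR adjusted p = 0.0159), and by 2.02 without GATA6KO replicate 2. Sprr2a1 and Sprr2a2 share 95.4% and 97.8% of their 31-base words with the other Sprr2a copies, so the division of reads among them is uncertain. Their calls may therefore not be separate results. Sprr2a3, which shares 73.4%, was higher in every GATA6KO library but was not called (log2 fold change 1.40, edgeR adjusted p = 0.0534). The sum of Sprr2a1, Sprr2a2 and Sprr2a3 was 1445 ± 760 CPM in GATA6KO and 324 ± 15.8 CPM in Control (SD, n = 3 each).

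The chemokine Ccl20, which draws lymphocytes to the epithelium, also rose, at 0.686 CPM in GATA6KO and 0.249 CPM in Control (edgeR adjusted p = 0.0361; 0.0738 without GATA6KO replicate 3). Dmbt1, a scavenger receptor that clumps bacteria, fell to 0.199 ± 0.121 CPM in GATA6KO, against 1.27 ± 0.399 CPM in Control (SD, n = 3 each; log2 fold change -2.64, edgeR adjusted p = 0.0215). Cxcl16, a membrane-bound chemokine with antibacterial action, fell to 26.3 ± 5.96 CPM in GATA6KO, against 51.7 ± 4.97 CPM in Control (SD, n = 3 each; log2 fold change -0.98, edgeR adjusted p = 0.0181).

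Of 6 tested NADPH oxidases and partners, 0 were called by edgeR, DESeq2 or limma-voom, and 1 had an unadjusted edgeR p under 0.05. The median log2 fold change was -0.01. Rac1, a GTPase that activates such oxidases, measured 409 CPM in GATA6KO and 452 CPM in Control (edgeR adjusted p = 0.459). Noxo1, the organiser of the colonic oxidase Nox1, measured 81.9 CPM in GATA6KO and 77.8 CPM in Control (edgeR adjusted p = 0.754).

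Of 9 tested nitric oxide and arginine genes other than Nos2, 2 were called (22.2%, beside 12.4% of all genes) and both fell. Ddah1, which removes a natural inhibitor of nitric oxide synthases, measured 45.7, 19.0 and 64.0 CPM in GATA6KO replicates 1 to 3 and 160, 168 and 172 CPM in Control replicates 1 to 3 (log2 fold change -1.96, SE 0.40, edgeR adjusted p = 0.026). It was lower in each GATA6KO library, most of all in replicate 2. Slc7a1, an importer of arginine, fell by 0.56 on the log2 scale (edgeR adjusted p = 0.0464). Scaled to the library total alone, Slc7a1 was not called (edgeR adjusted p = 0.0584), nor was it without GATA6KO replicate 2 or 3 (edgeR adjusted p = 0.0762 and 0.0946).

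Of 5 tested secreted phospholipases besides Pla2g2a, 1 fell, which was Pla2g5 (20%, beside 12.4% of all genes). The median log2 fold change was -0.69.

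Genes that receive the signals of immune cells moved in both directions. Of 18 tested in the list of interleukin and interferon input, 4 rose and 2 fell (33.3%, beside 12.4% of all genes). The median log2 fold change was -0.02. Il1r1, the receptor for interleukin 1, rose to 39.3 ± 10.4 CPM in GATA6KO, against 7.94 ± 0.412 CPM in Control (SD, n = 3 each; log2 fold change 2.31, SE 0.21, edgeR adjusted p = 0.00252). Its co-receptor Il1rap rose by 0.74 (edgeR adjusted p = 0.0234) and the cytokine gene Il18 by 2.29 (edgeR adjusted p = 0.00971). Traf3ip2, the adaptor of interleukin 17 receptors, rose by 0.72 (edgeR adjusted p = 0.0166).

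Ifngr1, which binds interferon gamma, an inducer of Nos2, fell. It measured 29.2, 24.8 and 34.0 CPM in GATA6KO replicates 1 to 3 and 61.5, 64.5 and 67.2 CPM in Control replicates 1 to 3 (log2 fold change -1.13, SE 0.13, edgeR adjusted p = 0.00477). The groups were well apart, with little spread in Control. Il22ra1, the interleukin 22 receptor subunit of epithelium through which Reg3 genes are induced, fell to 7.54 ± 2.50 CPM in GATA6KO, against 15.4 ± 0.562 CPM in Control (SD, n = 3 each; log2 fold change -1.03, edgeR adjusted p = 0.0381). Its call was also lost without GATA6KO replicate 2 or 3 (edgeR adjusted p = 0.0565 and 0.0782).

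Of 26 tested microbial sensors and adaptors, 1 rose and 2 fell, which is 11.5% and close to the share of all genes. Nlrp6, a sensor of the intestinal epithelium that acts on mucus and antimicrobial release, had 3, 1 and 2 counts in GATA6KO replicates 1 to 3, against 80, 109 and 94 counts in Control replicates 1 to 3. It was near 0 in every GATA6KO library (log2 fold change -5.62, SE 0.41, edgeR adjusted p = 0.00145). Tlr5, the receptor for flagellin, fell to 0.155 CPM in GATA6KO, against 0.832 CPM in Control (edgeR adjusted p = 0.0166). Tlr1, which pairs with Tlr2 to bind bacterial lipopeptides, rose to 10.3 ± 2.94 CPM in GATA6KO, against 2.81 ± 0.760 CPM in Control (SD, n = 3 each; edgeR adjusted p = 0.0158).

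Of 16 tested genes in the list of NF-kB and C/EBP factors, which also holds Xbp1, 6 were called and all 6 fell. This is 37.5%, beside 12.4% of all genes, and the median log2 fold change was -0.31. Cebpa, a C/EBP factor of differentiating cells, measured 2.74, 3.74 and 3.50 CPM in GATA6KO replicates 1 to 3 and 10.1, 9.74 and 11.0 CPM in Control replicates 1 to 3 (log2 fold change -1.63, SE 0.19, edgeR adjusted p = 0.00501). Cebpb, the C/EBP factor of acute-phase genes, fell by 1.25 (edgeR adjusted p = 0.0117) and Cebpg by 0.61 (edgeR adjusted p = 0.0219). Cebpd went the other way, at 12.6 CPM in GATA6KO and 8.27 CPM in Control, without overlap. It was not called (log2 fold change 0.608, edgeR adjusted p = 0.0578). The NF-kB inhibitors Tnfaip3 and Nfkbia, themselves NF-kB targets, fell by 0.75 and 0.49 (edgeR adjusted p = 0.0189 and 0.0449), and the secretory factor Xbp1 fell by 0.86 (edgeR adjusted p = 0.0413). Nfkbia was not called with scaling to the library total alone (edgeR adjusted p = 0.0523) or without GATA6KO replicate 2 (edgeR adjusted p = 0.0517), and Xbp1 was not without GATA6KO replicate 3 (edgeR adjusted p = 0.072).

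Of 9 tested partners of immunoglobulin A transport, 1 fell (11.1%, close to the 12.4% of all genes), beside the uncalled Pigr. It was Egfr, the receptor for epidermal growth factor, at 27.3 ± 5.01 CPM in GATA6KO and 42.9 ± 0.531 CPM in Control (SD, n = 3 each; log2 fold change -0.65, edgeR adjusted p = 0.0366).

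**Figure D4:**
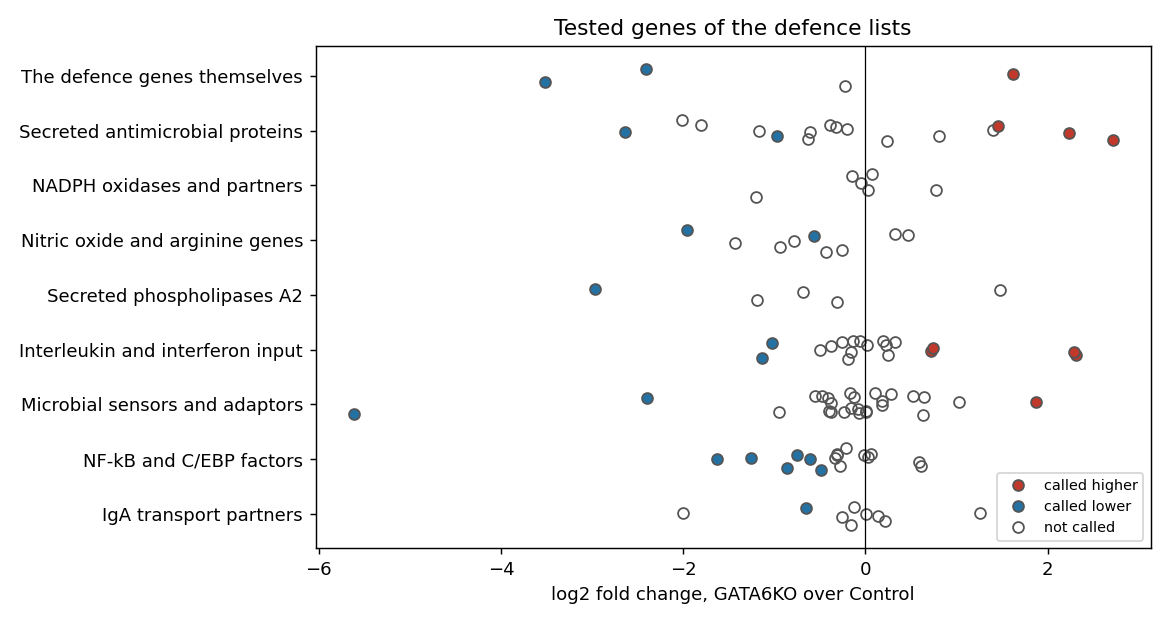
Log2 fold change of GATA6KO over Control (x axis) of each tested gene of the 10 defence genes (top) and of the 8 lists, a point per gene, jittered in height. Of the defence genes 1 lies right of 0 and called, at 1.62, and the farthest left of all points is Nlrp6 at -5.62.

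**Figure D5:**
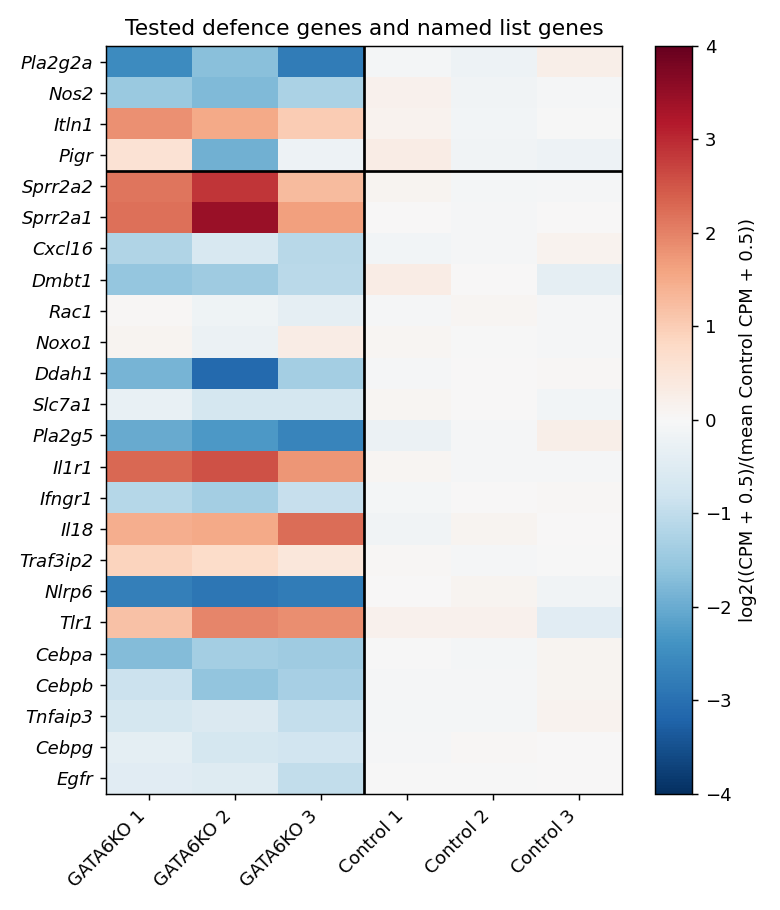
Log2 ratio of each library to the Control mean, with 0.5 CPM added (colour), for the 4 tested defence genes (above the line) and the named genes of the lists, in GATA6KO replicates 1 to 3 and Control replicates 1 to 3. Pigr differs in colour among the GATA6KO libraries, and Pla2g2a, Nos2 and Itln1 keep 1 direction in all 3.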

How the data were processed

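The deposited table gives an estimated count for each gene and library, as unscaled whole numbers. RNA was poly(A)-selected and made into strand-marking libraries, per the labels' protocols. The submitters' processing notes name Salmon 1.3.0 and mm10, with no role for either; annotation, rounding and use of strand are not stated there. Of 54418 identifiers, 54096 matched GENCODE M21, which gave symbols, positions and exon lengths. An estimated count divides reads among similar transcripts.

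Genes were kept by edgeR's filterByExpr (10 counts at the median library size in 3 libraries, 15 in total; 14714 left), scaled by TMM and tested by the quasi-likelihood test with robust estimation, without a block. P-values were adjusted by Benjamini-Hochberg over all genes tested, with a threshold of 0.05. An SE is the log2 fold change over the square root of F. Intervals for 0 counts cover counting error only. The tools were edgeR 4.0.16, DESeq2 1.42.0 and limma 3.58.1 in R 4.3.3. The fit was tested on simulated counts, where it missed most of the 1.5-fold and 2-fold changes and some of the 4-fold and 8-fold ones. Its calls there held a larger share of false ones than the threshold names.

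The 10 genes and all lists were chosen with earlier results of these data known. All 10 genes are named, with up to 4 called genes per list of at least 1 CPM in a group, by smallest adjusted p, or the 2 most abundant where none was called, and the 3 most like genes of each tested defence gene. Alternatives were DESeq2, limma-voom, RLE scaling, scaling by the library total alone, no filter, a stricter filter (1 CPM or more in each library of 1 of the groups), no robust estimation, a replicate block, and leaving out each of the 6 libraries.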

Additional observations from a re-analysis of the deposited data

How the results depend on the processing

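DESeq2, limma-voom, RLE scaling, the library total alone, no filter, the stricter filter and no robust estimation each called the same number of defence genes, 3. Leaving out 1 library gave 0 to 3 of them, with 0 without Control replicate 3 and 1 without Control replicate 1 or 2. Over all genes the count of calls was 332 to 4360 with 1 library left out, and 3238 by DESeq2, beside 1823. Over the lists it was 5 to 42 with 1 library left out and 37 by DESeq2, beside 24. With 1 library left out the log2 fold change of Noxo1 ran from -0.05 (without GATA6KO replicate 3, where its sign turned) to 0.21, and that of Pigr from -0.98 to 0.27 (without GATA6KO replicate 2, where its sign turned). With no filter Sprr2a2, Sprr2a1, Ddah1 and Ccl20 were not called (edgeR adjusted p = 0.0632, 0.0758, 0.128 and 0.0961), and by DESeq2 Ccl20 was not (adjusted p = 0.0787); the cause was not tested. With the library total alone Gata6 was not called (edgeR adjusted p = 0.0573).

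The replicate numbers recur in both groups, but no label says that they pair libraries. Deviations of same-numbered libraries correlated at -0.0103, 0.0744 and -0.0921 over genes, and not every library correlated best with its own number. With the replicate number as a block, 827 genes, 14 list genes and 2 of the defence genes were called. Nos2 was the defence gene not called (edgeR adjusted p = 0.0579). Gata6 was not called either, nor were Dmbt1, Tlr5, Il22ra1, Tnfaip3, Cebpg, Egfr, Slc7a1, Il1rap, Nfkbia and Ccl20 of the lists (edgeR adjusted p = 0.0566 to 0.112). Depth limits 6 of the 10 defence genes, which had at most 11 counts in a library.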
